A study of Triticum aestivum with 161 samples.

Results

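Xi_19 is a bread wheat cultivar, and its developing grain was set against that of 5 others: Cordiale, Hereward, Istabraq, Malacca and Marksman. The comparison used every array from plots given 200 kg of nitrogen per ha (N200), chosen by the sample labels alone. These were 15 arrays of Xi_19 and 74 of the other cultivars (14 of Malacca and 15 of each other), out of 161 arrays in all. Whole caryopses were taken 21 days after anthesis, in mid grain filling, in 5 environments: Rothamsted in 2009, 2010 and 2011, and RAGT in 2010 and 2011. Each cultivar was represented by 3 plots per environment with 1 array each, except for 1 group of Malacca with 2. All 6 cultivars shared the nitrogen supply, the sites and the seasons, and the labels name no other treatment or genetic change. At each of N100 and N350 (100 and 350 kg per ha), there were 6 further Xi_19 arrays and 30 arrays of the others. All were from Rothamsted in 2009 and 2010, and their means gave the same contrast without the N200 arrays. The spread estimate behind every test came from all 161 arrays, so the tests at the nitrogen levels were not independent.

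The wheat caryopsis holds several tissues in one organ. The starchy endosperm makes starch and the gluten proteins, which are the gliadins and glutenins, together with serpins and inhibitors of digestive enzymes. The embryo and aleurone accumulate late embryogenesis and abscisic acid-related proteins as the seed prepares to dry, and a green layer of the pericarp photosynthesises around the filling grain. Cultivars carry different alleles at the gluten loci, and breeders use these alleles to describe bread-making types.

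After controls were left out, 61178 probe sets were compared on the log2 scale, so that a difference of 1 is a doubling of signal. A signal measures RNA bound to fixed probes, and a lower transcript level and a sequence difference under the probes cannot be told apart. In whole grain, fewer cells of a type and less RNA per cell cannot be told apart either. The median SD between plots of a group was 0.17, and the number of arrays limits the precision. The 15 Xi_19 arrays lay 0.0828 to 0.261 from their group means (root mean square over probe sets with a mean signal of at least 6), and the other arrays 0.0715 to 0.306. The 3 arrays farthest from their group were all of Rothamsted 2009: Xi_19 replicate 1, Istabraq replicate 1 and Cordiale replicate 3. The 3′ minus 5′ log2 signal of control transcripts, a measure of RNA integrity, had a median of -0.91 (range -1.38 to -0.62) in Xi_19 and of -1.02 (range -1.44 to -0.56) in the others. Markers of the labelled tissue were strong: the alpha gliadin probe sets averaged 14.07 to 14.26 on the Xi_19 arrays and 12.03 to 14.26 on the others.

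The first question was how many transcripts set Xi_19 grain apart. Against the mean of the other cultivars, 16597 probe sets (27.1%) passed limma's test at an adjusted p under 0.05, with 8567 (14%) higher and 8030 (13.1%) lower in Xi_19. Most of these differences were small, with a median size of 0.19 on the log2 scale, and 1211 (1.98%) were at least 1.5-fold. Because 1 cultivar can move a mean, a stricter rule asked for a difference in the same direction from each of the 5 others. It called 1220 probe sets (1.99%), of which 505 (0.825%) were higher and 715 (1.17%) lower in Xi_19. Of the 1220, 256 (0.418%) were at least 1.5-fold from the nearest cultivar, and 62 were at least 2-fold higher and 65 at least 2-fold lower than in it. The same rule called 678 probe sets for Hereward (1.11%), 474 for Istabraq (0.775%), 349 for Malacca (0.57%), 326 for Marksman (0.533%) and 255 for Cordiale (0.417%), and the differences between these counts were not tested. Without the plots of RAGT 2011 the rule called 805 for Xi_19, and with any 1 replicate number left out of all groups it called 617 to 792.

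Against single cultivars, all compared with the same Xi_19 arrays, limma called 15511 probe sets for Cordiale (25.4%), 14613 for Hereward (23.9%), 14568 for Istabraq (23.8%), 13022 for Malacca (21.3%) and 8992 for Marksman (14.7%). Large differences, counted only among the 24406 probe sets with a mean signal of at least 6, ran in another order. Differences of 4-fold or more numbered 260 against Malacca, 228 against Hereward, 200 against Istabraq and 197 against each of Cordiale and Marksman. In 323 probe sets the 6 cultivar means fell into a high and a low class with at least 2 log2 units between them. Xi_19 stood alone in 35 of these, as the high cultivar in 17 and the low cultivar in 18, and it shared its class with at least 1 other cultivar in the rest. For comparison, Hereward stood alone in 37, Marksman in 22, Istabraq in 21, and Cordiale and Malacca in 15 each.

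The widest separation of Xi_19 from every other cultivar lay in probe sets to which the annotation gives no gene. Ta.22966.3.S1_at had a lowest, median and highest signal of 9.27, 9.56 and 10.17 on the 15 Xi_19 arrays, against 4.03, 4.61 and 5.61 on the 74 others. It was 5.03 ± 0.07 (SE) higher in Xi_19 (limma, adjusted p = 1.72e-92). Ta.17293.2.S1_at had 2.96, 3.58 and 4.31 in Xi_19, against 8.04, 8.84 and 9.89 in the others, and was lower in Xi_19 by a difference of -5.16 ± 0.08 (limma, adjusted p = 2.46e-90). The cultivars did not overlap on either probe set, and the low side of each lay in the lower part of a scale whose lowest value was 1.59.

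Among those higher in Xi_19, TaAffx.97723.1.A1_at averaged 8.76 in Xi_19 and 4.21 in the others, TaAffx.12065.1.S1_at 8.02 and 4.42, Ta.6254.1.S1_at 9.27 and 5.57, Ta.26351.1.A1_at 9.94 and 6.22, and Ta.24306.1.S1_at 7.06 and 4.23. Among those lower, Ta.18870.1.S1_at averaged 5.82 in Xi_19 and 10.58 in the others, Ta.9040.1.A1_at 3.78 and 8.58, TaAffx.1966.1.S1_at 3.93 and 7.96, Ta.8722.1.S1_at 4.88 and 8.87, and Ta.25914.1.A1_at 5.52 and 9.49. In each of the 5 environments, every Xi_19 array of these 12 probe sets lay beyond every other array. This held for 180 of all probe sets (0.294%), 80 of them higher (0.131%) and 100 lower (0.163%) in Xi_19, and the 12 were named for the size of their separation. Among the other cultivars the means of most of the 12 lay close together. Ta.26351.1.A1_at was wider, between 5.60 in Marksman and 6.78 in Cordiale, and Ta.9040.1.A1_at ran between 8.16 in Hereward and 9.13 in Cordiale.

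**Figure D1:**
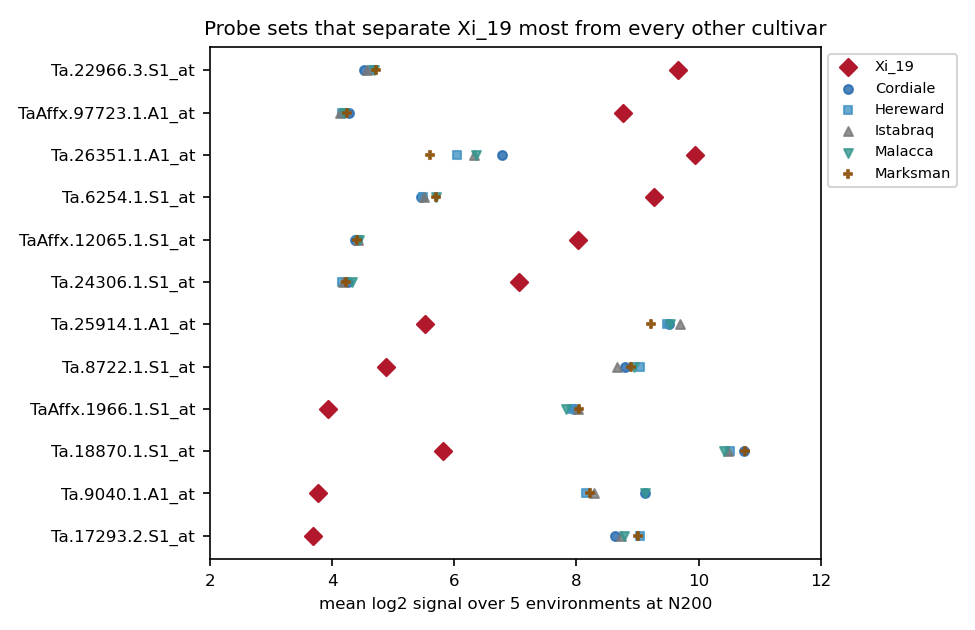
Mean log2 signal over 5 environments at N200 (horizontal axis) of the 12 unnamed probe sets that separate Xi_19 most from the nearest other cultivar, with 1 symbol per cultivar. Xi_19 (red diamonds) lies apart from all 5 others on every line, at 9.66 on the top line, where the others sit between 4.52 and 4.72, and at 3.68 on the bottom line, where they sit between 8.63 and 9.04.

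Genes with a protein name were a small share of the array: 102 genes with 200 probe sets, of which 86 were called against the mean of the others, 57 higher and 29 lower in Xi_19, where 27.1% of all probe sets were called, 14% higher and 13.1% lower. The stricter rule called 17 of these 200 probe sets, 15 higher and 2 lower, where it called 1.99% of all probe sets, 0.825% higher and 1.17% lower. The 15 included 8 probe sets of photosynthesis genes (rbcl, PRK, Trx-M, PsbP, FBP and petC), and the 2 lower ones were the fructan exohydrolase 6-FEH and the zinc finger gene WZF1. The 200 held 28 probe sets of rbcl, 2 each of PsbP, FBP and petC, and 1 each of PRK and Trx-M. Calls against the mean were more frequent at higher signal. With only the 24406 probe sets of a mean signal of at least 6 tested, 10325 were called, 41.8% of them higher. Neither the named genes nor the lists below were compared with probe sets of matched signal, so their counts do not show that they differed more often. The 15 largest differences of named genes in each direction are described below by function.

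**Figure D2:**
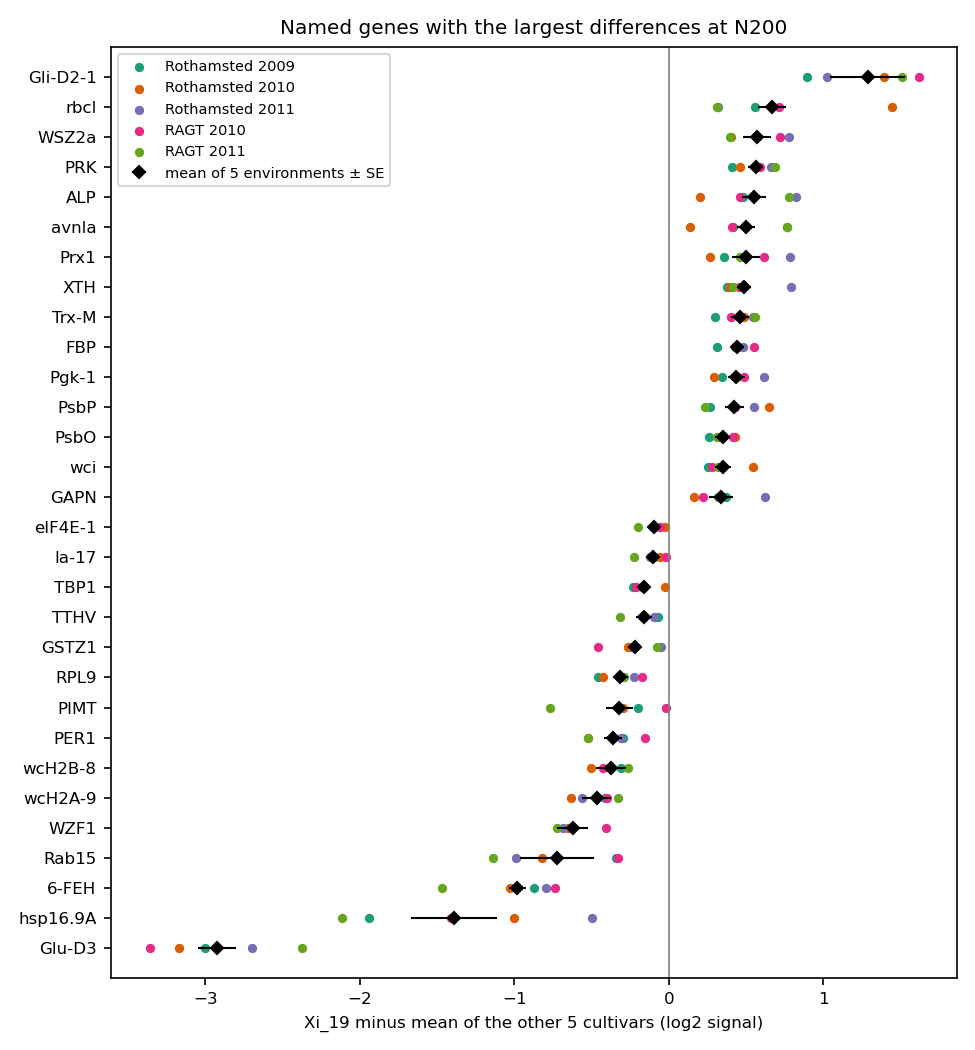
Difference in log2 signal between Xi_19 and the mean of the other 5 cultivars at N200 (horizontal axis) for the named genes with the largest differences in each direction; coloured points are the environments, and black diamonds with bars are their mean and SE. Every environment has the sign of the mean for every gene shown, as the naming rule required, and Glu-D3 lies farthest below 0, at -2.92.

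Genes of photosynthesis were higher in Xi_19. PRK encodes phosphoribulokinase, which regenerates the CO2 acceptor of the Calvin cycle, and its signal had a lowest, median and highest value of 10.57, 11.06 and 11.78 in Xi_19, against 9.75, 10.66 and 11.37 in the others. The difference was 0.56 ± 0.05 (limma, adjusted p = 1.51e-19), and PRK passed the stricter rule as well (adjusted p = 3.03e-07). The ranges overlapped over all arrays, but within 4 of the 5 environments every Xi_19 array was above every other array. The nearest cultivar was Cordiale, at a mean of 10.83 against 11.23 in Xi_19, and Istabraq was the lowest, at 10.38.

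Other Calvin cycle genes and a chloroplast thioredoxin did likewise. FBP, which encodes fructose-1,6-bisphosphatase, averaged 8.30 in Xi_19 and 7.85 in the others (difference 0.44 ± 0.04). Trx-M, a thioredoxin that passes reducing power to chloroplast enzymes, averaged 9.37 in Xi_19 and 8.92 in the others (difference 0.46 ± 0.06). A probe set annotated as rbcl, the large subunit of the CO2-fixing enzyme Rubisco, averaged 8.32 in Xi_19 and 7.65 in the others (difference 0.67 ± 0.09). All 3 passed the stricter rule. Every Xi_19 array was above every other array within 2 environments for FBP and Trx-M and within 1 for rbcl, and the arrays overlapped in the rest. The Pgk-1 gene for phosphoglycerate kinase, an enzyme that both glycolysis and the Calvin cycle use, averaged 9.59 in Xi_19 and 9.15 in the others (difference 0.44 ± 0.05) and was not called under the stricter rule, with Cordiale nearest at 9.39.

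The light reactions were represented by PsbP and PsbO, which stabilise the water-splitting centre of photosystem II, and by petC, the Rieske protein of the cytochrome b6f complex. PsbP averaged 9.09 in Xi_19 and 8.66 in the others (difference 0.42 ± 0.06), and on its second probe set 11.07 and 10.67 (difference 0.40 ± 0.05). PsbO averaged 10.12 in Xi_19 and 9.77 in the others (difference 0.35 ± 0.05). For 1 of 2 petC probe sets the means were 10.85 in Xi_19 and 10.52 in the others (difference 0.33 ± 0.04), and the other did not pass. PsbP and the called petC probe set separated Xi_19 from each other cultivar under the stricter rule, whereas PsbO was not called against Cordiale (9.99, adjusted p = 0.138) or Marksman (9.95, adjusted p = 0.068).

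Over the list of green pericarp markers (rbcl, PRK, Trx-M, PsbP and PsbO), 18 of 33 probe sets were higher in Xi_19, 0 were lower and 15 did not pass limma's test, against 14% of all probe sets higher. At an unadjusted p under 0.05, 20 were higher and 0 lower, where 23207 of all 61178 probe sets had such a p in either direction. The list's median difference was 0.13, against 0.02 over all probe sets. It holds 28 probe sets of rbcl, 13 of them higher and 15 not passing, and these measure 1 gene. A mean signal of at least 6 was reached by 10 of the 33 probe sets, and by 5 of the 28 of rbcl. The list's mean signal per array was 5.51 to 6.02 in Xi_19 and 5.17 to 5.92 in the others. Whether the amount of green tissue in the sampled grain differed was not tested. Markers of the starchy endosperm, from 13 probe sets, averaged 12.01 to 12.46 on the Xi_19 arrays and 11.81 to 12.77 on the others.

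Among gluten protein genes the largest difference was that of Glu-D3, which encodes low-molecular-weight glutenin subunits, one of the polymer-forming components of gluten. Its probe set Ta.160.2.S1_x_at had a lowest, median and highest signal of 9.39, 10.10 and 11.49 in Xi_19, against 9.47, 13.93 and 14.53 in the others. The difference from their mean was -2.92 ± 0.12 (limma, adjusted p = 1.53e-43), and the cultivars fell into classes. Cordiale averaged 14.07, Malacca 14.05 and Marksman 14.06, Istabraq was between at 12.49, and Hereward was at 10.48, close to the 10.11 of Xi_19. Xi_19 had the lowest mean in each of the 5 environments, but its arrays overlapped those of Hereward, and the difference between these cultivars, -0.37, did not pass (adjusted p = 0.074). A second Glu-D3 probe set repeated the order at a smaller size, with 11.24 in Xi_19 and 11.33 in Hereward, 11.82 in Istabraq, and 13.09 to 13.19 in the remaining cultivars. The glutenin list had 0 probe sets higher and 2 of 3 lower (13.1% of all probe sets were lower). At an unadjusted p under 0.05 it had 0 higher and 3 lower by limma. Of all 61178 probe sets, 23207 had such a p in either direction. Both Glu-D3 probe sets end in x_at, the array's mark for probes shared with similar sequences, and may read more than 1 gene of this family.

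For a pair of endosperm genes, Malacca alone stood apart. Gli-D2-1, an alpha gliadin of the D genome, averaged 14.11 in Xi_19 and 12.82 in the others (difference 1.29 ± 0.24), but Cordiale, Hereward, Istabraq and Marksman were all between 14.08 and 14.13 and Malacca was at 7.68. Without Malacca in the mean, the difference was 0.00 (adjusted p = 0.996). WSZ2a, an endosperm serpin of a family that inhibits proteases, likewise averaged 12.70 in Xi_19 and 12.13 in the others (difference 0.57 ± 0.09), with Malacca at 9.79 and the remaining cultivars at 12.52 to 12.97. Its difference without Malacca was -0.01 (adjusted p = 0.936). Of the lists, alpha gliadins had 1 of 5 probe sets higher and serpins 1 higher and 1 lower of 5, where 14% of all probe sets were higher and 13.1% lower, so that these counts show nothing about either list. The lower serpin was WSZ1c, at 10.76 in Xi_19 and 11.04 in the others (adjusted p = 0.0139), a call that was lost without Hereward in the mean (adjusted p = 0.16) and without replicate 2 or 3.

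Avenin-like proteins, sulphur-rich relatives of the gliadins, were higher in Xi_19 on 5 of 6 probe sets (14% of all probe sets were higher), with a list median of 0.40. ALP had a lowest, median and highest signal of 12.87, 13.65 and 13.85 in Xi_19, against 11.90, 13.14 and 13.72 in the others, a difference of 0.55 ± 0.08. For avnla the values were 13.41, 13.97 and 14.13 in Xi_19 and 12.42, 13.49 and 14.19 in the others, a difference of 0.50 ± 0.06. The arrays overlapped, and the sizes moved with the environment: ALP differed by 0.82 and 0.78 at Rothamsted and RAGT in 2011 and by 0.20 at Rothamsted in 2010, although neither gene passed the test between environments (adjusted p = 0.634 for ALP and 0.17 for avnla). A further ALP probe set, at 14.35 in Xi_19 and 13.96 in the others, passed the stricter rule (adjusted p = 0.00903).

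The inhibitor list had 4 of 5 probe sets higher (14% of all probe sets were higher), with a list median of 0.05. The wci gene, a chymotrypsin inhibitor of the grain, averaged 13.83 in Xi_19 and 13.48 in the others (difference 0.35 ± 0.05) and passed the stricter rule, with every Xi_19 array above every other array in 3 environments. The ATI probe sets, for alpha-amylase and trypsin inhibitors, differed by 0.05 to 0.06 near the top of the scale, and their calls were lost when some single replicates were left out. The gamma gliadin GAG56D was higher on 2 of 3 probe sets, by 0.18 ± 0.04 on the first (13.65 in Xi_19 and 13.47 in the others) and by 0.09 ± 0.02 on the second, a call lost without replicate 1, and neither was called against Marksman. In starch synthesis, the granule-bound starch synthase Wx-A1 averaged 13.00 in Xi_19 and 12.88 in the others (difference 0.12 ± 0.04), a call lost without any 1 of the 3 replicates, and the other member of that list did not pass.

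Fructans are stored in the young caryopsis and stem and are broken down by exohydrolases. 6-FEH, the fructan 6-exohydrolase, had a lowest, median and highest signal of 7.37, 8.06 and 8.27 in Xi_19, against 7.97, 8.99 and 9.80 in the others. It was lower in Xi_19 by a difference of -0.98 ± 0.06 (limma, adjusted p = 5.96e-32), and passed the stricter rule (adjusted p = 7.66e-05). Within each of the 5 environments every Xi_19 array was below every other array, as was true of 0.163% of all probe sets. Malacca was nearest, at 8.38 against 7.99 in Xi_19, and Istabraq was highest, at 9.41. The difference was -1.47 at RAGT in 2011 and between -0.74 and -1.03 in the other environments, and the test between environments gave an adjusted p of 0.0553, which was 0.0149 with only the arrays compared and 0.193 after quantile normalization. A second 6-FEH probe set was lower by a smaller amount, at 6.94 in Xi_19 and 7.23 in the others (difference -0.29 ± 0.06), and its call was lost without RAGT 2011 (adjusted p = 0.0898). The related 1-FEH, at 9.52 in Xi_19 and 9.56 in the others, did not pass (adjusted p = 0.742), so the fructan list had 2 of 4 probe sets lower, both of 6-FEH (13.1% of all probe sets were lower).

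**Figure D3:**
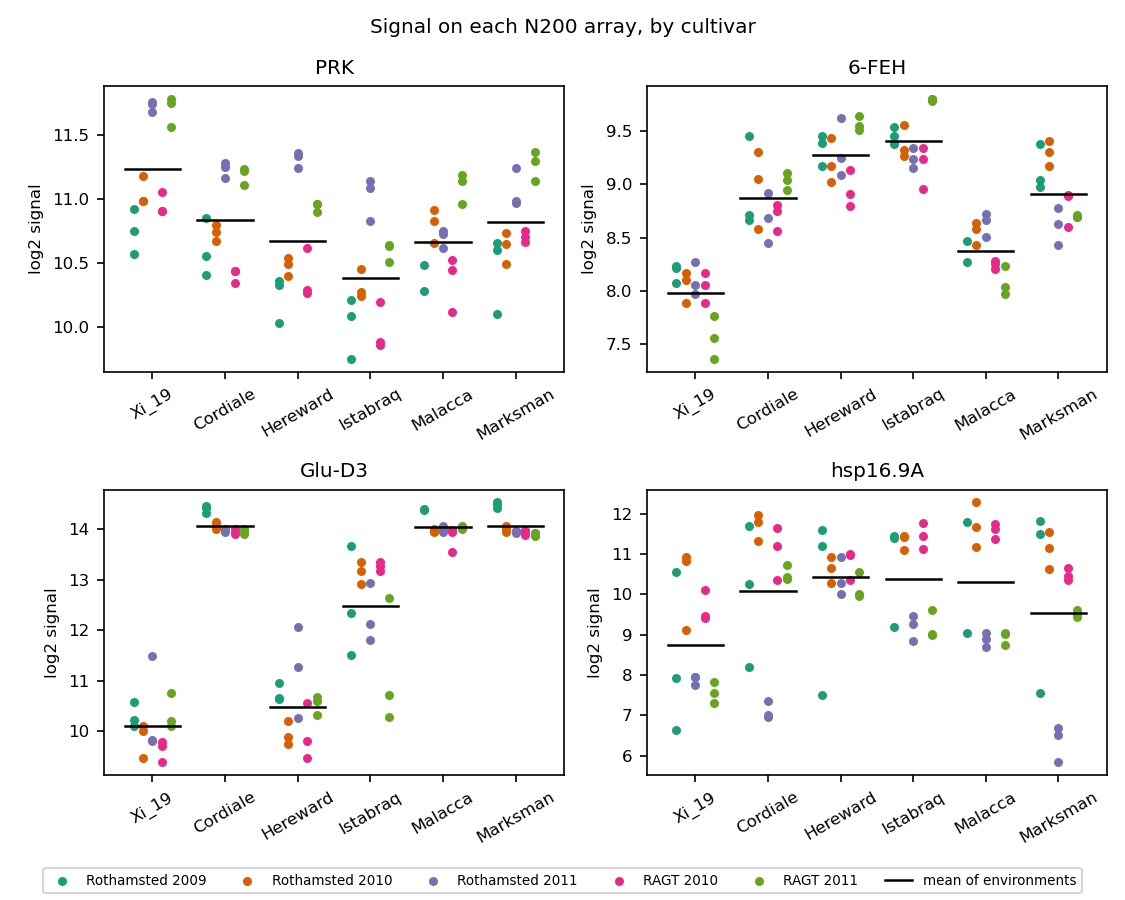
Log2 signal (vertical axis) on each N200 array of PRK, 6-FEH, Glu-D3 and hsp16.9A, by cultivar with Xi_19 at the left; colours are environments and black lines are means of the environments. Xi_19 has the highest mean of PRK (11.23) and the lowest of 6-FEH (7.99), shares a low class of Glu-D3 with Hereward (10.11 and 10.48), and varies widely between plots for hsp16.9A.

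The small heat shock protein gene hsp16.9A, whose product holds unfolding proteins in solution, varied widely between plots, with an SD within groups of 1.03 in Xi_19. Its lowest, median and highest signals were 6.64, 7.96 and 10.93 in Xi_19, against 5.84, 10.44 and 12.28 in the others, and the difference was -1.39 ± 0.28 (limma, adjusted p = 3.27e-05). The single plots qualify this mean. At Rothamsted in 2009 the 3 Xi_19 plots read 7.92, 6.64 and 10.57. At Rothamsted in 2011 they read 7.95, 7.76 and 7.96, above all plots of Cordiale (6.95 to 7.36) and Marksman (5.84 to 6.70) and below those of Hereward, Istabraq and Malacca. Over the environments, Xi_19 was called lower than each cultivar except Marksman (adjusted p = 0.14).

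Late embryogenesis and abscisic acid-related genes, which protect the drying seed, gave 2 of 10 probe sets lower in Xi_19 and 8 that did not pass, with a list median of -0.48. This count is near the 13.1% of all probe sets that were lower, and both belong to 1 gene, the dehydrin Rab15. It had a lowest, median and highest signal of 6.61, 9.19 and 10.92 in Xi_19, against 7.18, 9.23 and 11.95 in the others, so the ranges and medians were close. The mean difference was -0.72 ± 0.24 (limma, adjusted p = 0.0165), and Hereward, at 10.13, was the only single cultivar against which Xi_19 was called (adjusted p = 0.000159). The call was lost without Hereward in the mean (adjusted p = 0.0884), without replicate 2 or 3 (adjusted p = 0.074 and 0.129) and without the 3 arrays farthest from their groups (adjusted p = 0.122). The embryo markers EM, EMH2 and WGA2 also varied widely over the arrays: 0 of 6 probe sets passed limma's test, 0 higher and 0 lower at an unadjusted p under 0.05, the list median was -0.39, and the array means ran between 4.75 and 9.55 in Xi_19 and between 4.57 and 11.57 in the others. Of all 61178 probe sets, 23207 had an unadjusted p under 0.05 in either direction. The part of the embryo markers in the Rab15 difference was not tested.

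PER1, known in barley as an antioxidant peroxiredoxin of the aleurone and embryo, averaged 12.59 in Xi_19 and 12.95 in the others (difference -0.36 ± 0.06), while Cordiale, at 12.44, was not called apart from Xi_19 (adjusted p = 0.15). PER1 gave the 1 of 4 aleurone marker probe sets that passed, a count near the 27.1% of all probe sets called (13.1% lower). The other of its 2 probe sets did not pass. WZF1, a zinc finger gene, averaged 6.71 in Xi_19 and 7.33 in the others (difference -0.62 ± 0.10) and was the second named gene, with 6-FEH, to be lower than in each other cultivar (adjusted p = 0.00447).

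Core histone genes, whose transcripts accompany DNA replication, gave 6 of 18 probe sets lower and 1 higher in Xi_19 (13.1% and 14% of all probe sets), with a list median of -0.18. Of the 18, 17 had a mean signal of at least 6, where calls were more frequent. For wcH2A-9 the means were 9.99 in Xi_19 and 10.46 in the others (difference -0.47 ± 0.09). Hereward and Marksman were at 11.01 each, and Xi_19 was called lower than these alone: Istabraq was at 9.99, Malacca at 10.06 and Cordiale at 10.23. For wcH2B-8 the means were 8.90 in Xi_19 and 9.28 in the others (difference -0.38 ± 0.10), with all 5 cultivar means above that of Xi_19, and the adjusted p was 0.052 without replicate 3. Another wcH2B-8 probe set went the other way, at 9.31 in Xi_19 and 8.98 in the others, with Istabraq at 8.17 and Marksman at 8.20.

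Other named genes were higher in Xi_19 without belonging to these groups. XTH, a xyloglucan endotransglucosylase that remodels cell walls, averaged 7.06 in Xi_19 and 6.57 in the others (difference 0.49 ± 0.04) and passed the stricter rule. Prx1 averaged 8.54 in Xi_19 and 8.05 in the others (difference 0.50 ± 0.09). GAPN, a glyceraldehyde-3-phosphate dehydrogenase that makes NADPH in the cytosol, averaged 7.89 in Xi_19 and 7.55 in the others (difference 0.34 ± 0.08). The glyoxalase gene lgul, which clears methylglyoxal, was higher on both called probe sets, by 0.60 ± 0.07 and 0.29 ± 0.06, while the glutathione transferase GSTZ1 was lower by a difference of -0.22 ± 0.04 on 1 of 3 probe sets, and the other 2 did not pass.

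Lower in Xi_19 were also the ribosomal protein gene RPL9 (6.32 in Xi_19 and 6.63 in the others), the protein repair methyltransferase PIMT (6.67 and 6.99), the thionin TTHV (13.58 and 13.74), the TATA-binding protein TBP1 (9.81 and 9.98), la-17 (7.43 and 7.54) and the cap-binding factor eIF4E-1 (10.23 and 10.33). RPL9 and TBP1 kept their calls in all settings tried. For TBP1, Xi_19 was called lower than Cordiale (10.24) and Malacca (10.20) alone, and the calls of the other 4 genes were lost in at least 1 setting. In the defence list 2 of 8 probe sets were lower, the thionins THI1.3 (-0.09) and THI1.1 (-0.04), whose calls were lost without any 1 replicate, and in the list of tubulins, actin and ubiquitin 4 of 13 were higher and 1 lower. Of all probe sets, 14% were higher and 13.1% lower. Of the 4 gibberellin probe sets, 0 passed limma's test, with GA20ox1d at 6.55 in Xi_19 and 6.62 in the others. At an unadjusted p under 0.05 by limma, 2 of the 4 were higher and 0 lower. Since 23207 of all 61178 probe sets had such a p in either direction, this count shows nothing about the list. The beta-amylase BMY1 (8.89 in Xi_19 and 9.22 in the others, adjusted p = 0.395) and the caffeic acid methyltransferase COMT1 (12.76 and 12.69, adjusted p = 0.12) did not pass either, although COMT1 passed in 6 of 22 other settings.

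The second question was whether the difference held at other nitrogen levels, on arrays whose values did not enter the N200 means. The tests shared a spread estimate from all arrays, so calls at N100 and N350 were not independent of the N200 calls. At N100 limma called 8668 probe sets between Xi_19 and the others (14.2%), and at N350 it called 9941 (16.2%), against 5857 (9.57%) at N200 in the same pair of environments. At N100, 5044 (58.2%) were higher in Xi_19, a share that was 47.7% after quantile normalization of all arrays. Of the 505 probe sets higher than every other cultivar at N200, 452 (89.5%) were called higher at N100 and 462 (91.5%) at N350, where 8.24% and 8.37% of all probe sets were. Of the 715 lower ones, 548 (76.6%) and 592 (82.8%) were called lower, where 5.92% and 7.88% of all were. None was called in the opposite direction by limma, and of the 505 and 715 probe sets, 504 and 708 kept their sign at N100 and 503 and 707 at N350. The 12 unnamed probe sets kept their direction, with differences of 2.86 to 4.94 at N100 and 2.77 to 4.75 at N350 for the 6 higher ones and of -4.07 to -5.68 and -4.03 to -5.72 for the 6 lower ones.

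Named genes behaved in several ways. The photosynthesis genes were higher in Xi_19 at both levels, with PRK at 0.62 ± 0.07 (N100) and 0.57 ± 0.07 (N350), PsbP at 0.74 and 0.67, PsbO at 0.59 and 0.57, and Trx-M at 0.56 and 0.53. Of the green pericarp list, 15 of 33 probe sets were higher at N100 and 14 at N350, where 8.24% and 8.37% of all were, and 0 were called lower. Of these, 10 and 9 were probe sets of rbcl, which measure 1 gene. Glu-D3 differed by -3.24 at N100 and -3.34 at N350, and 6-FEH by -1.11 and -1.08. All of these passed limma's test at both levels.

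The avenin-like genes did not pass at N100, with ALP at 0.16 (adjusted p = 0.378) and avnla at 0.12 (adjusted p = 0.412), and passed at N350, with 0.42 and 0.33. The wci difference was 0.36 at N100 and 0.64 at N350. For histones, 5 of 18 probe sets were lower at N100 and 10 of 18 at N350, against 5.92% and 7.88% of all probe sets. At N350 wcH2A-9 and wcH2B-8 both differed by -0.77. The hsp16.9A difference was -0.72 at N100 (adjusted p = 0.285) and -1.31 at N350 (adjusted p = 0.0278). Whether the cultivar difference itself changed with nitrogen was not tested.

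**Figure D4:**
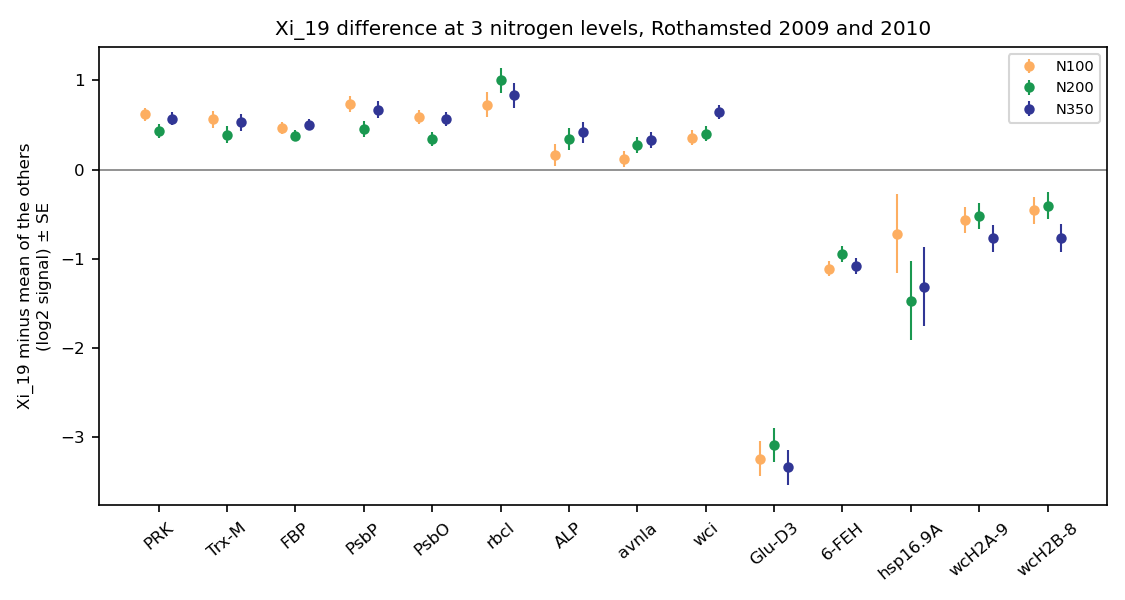
Difference in log2 signal between Xi_19 and the mean of the other cultivars (vertical axis, bars are SE) at N100, N200 and N350, all at Rothamsted in 2009 and 2010, for 14 named genes. Glu-D3 lies near -3 and 6-FEH near -1 at every level, and the photosynthesis genes from PRK to rbcl lie above 0 at every level.

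The third question was whether the difference depended on site and season. limma's F test between the 5 environments called 431 probe sets (0.705%), and 5261 had an unadjusted p under 0.05. The count was 299 without replicate 1, 41 without replicate 2 and 86 without replicate 3. Among the 200 probe sets of named genes it called 1: that of ALMT1, the aluminium-activated malate transporter known from root tips of aluminium-tolerant wheat. ALMT1 had a lowest, median and highest signal of 4.18, 4.84 and 6.14 in Xi_19, against 3.40, 3.88 and 4.34 in the others, and was higher by 1.13 ± 0.06 (limma, adjusted p = 9.55e-35). Every Xi_19 array lay above every other array of its environment. The size was 1.59 and 1.79 at Rothamsted in 2009 and 2010, 0.64 at Rothamsted in 2011, and 1.02 and 0.60 at RAGT in 2010 and 2011, a spread of 1.19 (adjusted p = 6.49e-07). That test did not pass without replicate 3 (adjusted p = 0.116). At Rothamsted in 2009 and 2010 the difference was 1.72 at N100 and 0.99 at N350. The medians of ALMT1 lie in the lower part of the scale of this array.

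Among probe sets without a gene, 3 had the smallest p of the test between environments. TaAffx.107412.1.S1_at was higher in Xi_19 by 1.87 and 1.98 at Rothamsted and RAGT in 2011 and by 0.48 to 0.62 in the earlier environments. Ta.24926.1.S1_at differed by 1.13 and 1.72 in 2011 and by -0.05 to 0.08 before. At Rothamsted in 2011 its Xi_19 plots read 6.09, 4.37 and 3.80, so 1 plot weighs on that difference. Its medians, 2.88 in Xi_19 and 2.91 in the others, lie low on the scale, where a difference before 2011 may not have registered. Ta.26233.1.A1_at was lower by -0.62 and -1.38 in 2011 and by -0.06 to -0.19 before. All 3 had their largest differences at both sites of 2011, and since the sources do not say whether seasons were normalized together, a biological season and the processing of a season cannot be told apart. The RNA integrity measure also ran higher in 2011, in Xi_19 and in the others, and its part was not tested.

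**Figure D5:**
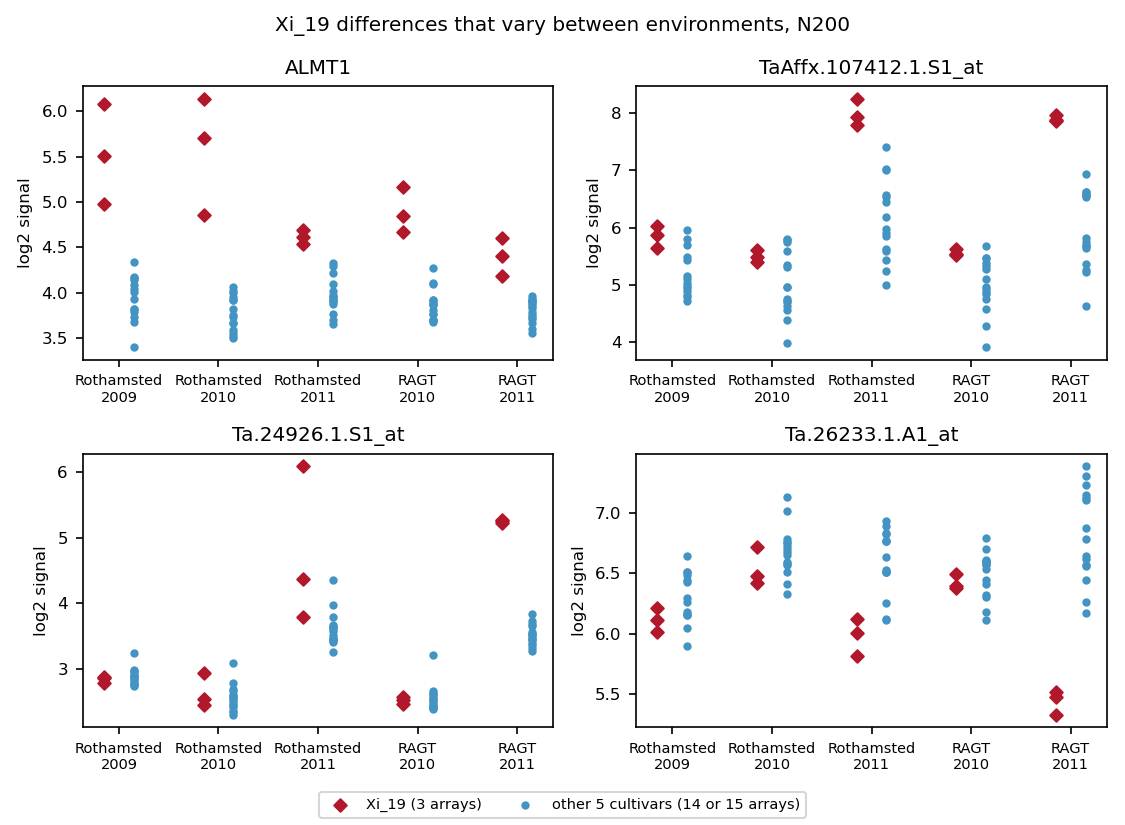
Log2 signal (vertical axis) on each N200 array of Xi_19 (red diamonds, 3 per environment) and of the other 5 cultivars (blue points) for ALMT1 and 3 probe sets without a gene, by environment. ALMT1 lies above the others in every environment with the widest gap at Rothamsted in 2009 and 2010, and the other 3 probe sets show their widest gaps in 2011.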

How the data were processed

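Affymetrix wheat arrays, 1 per plot, measured caryopsis RNA, and each array was assigned to its cultivar, nitrogen supply, site and season by its labels. The authors deposited log2 signals, made with RMA per the submitters' processing notes. Its version, and whether it was run per season, is not given in the sources used here. Of 61288 probe sets, 110 controls were left out.

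limma 3.58.1 in R 4.3.3 (with data.table, version 1.17.8) was fitted to all 161 arrays with 54 group means and 107 residual degrees of freedom. Contrasts set Xi_19 against each or the mean of the other cultivars within an environment, with equal weight, and were averaged. Tests were two-sided, adjusted by Benjamini and Hochberg over 61178 probe sets and called under 0.05. The stricter rule took the largest p of the 5 single comparisons, or 1 where their signs differed, before adjustment. The test between environments was an F test with 4 numerator degrees of freedom. P-values measure the spread between plots, which the labels call biological replicates. The methods were tested on simulated data.

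The annotation of the array gave 1 gene to 1273 probe sets (771 genes, 770 found in RefSeq's table for the Chinese Spring assembly) and a protein name to 102 genes with 200 probe sets. Positions are not stated, because the files name no build. Named genes were the 15 largest called differences per direction, 1 probe set per gene. They needed a signal of 6 or more on the higher side and the same sign in all environments. Added were up to 4 members of each gene list and 6 unnamed probe sets per direction. For the environment test, the 3 named genes with the smallest p (ALMT1, 6-FEH and rbcl) and 3 such unnamed probe sets were added. Genes, lists and rules were chosen with earlier results of these data known. The values of petC, further PsbP, ALP, EM, EMH2, 1-FEH and histone probe sets were picked after they were seen. Lists for puroindolines and nitrogen assimilation matched no probe set. No arrays held identical values.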

Additional observations from a re-analysis of the deposited data

Results flagged for a closer look

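The difference between Xi_19 and the other cultivars differed between environments, by limma's F test, for 7 of the probe sets described. The spread between the largest and the smallest environment was 1.188 log2 units for ALMT1 (adjusted p = 6.49e-07), 1.502 for TaAffx.107412.1.S1_at (adjusted p = 4.64e-13), 1.77 for Ta.24926.1.S1_at (adjusted p = 9.35e-12) and 1.314 for Ta.26233.1.A1_at (adjusted p = 2.31e-09). It was also 1.667 for Ta.17293.2.S1_at (adjusted p = 9.31e-07), 1.997 for Ta.8722.1.S1_at (adjusted p = 8.75e-07) and 0.9207 for TaAffx.1966.1.S1_at (adjusted p = 0.0023). These last 3 kept their sign in all environments. The smallest difference between Xi_19 and the others was -4.25 at RAGT in 2011 for Ta.17293.2.S1_at, -3.03 at Rothamsted in 2011 for Ta.8722.1.S1_at and -3.52 at Rothamsted in 2009 for TaAffx.1966.1.S1_at.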

How the results depend on the processing

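Of 69 called items among the 73 named, 46 kept direction and call in all of up to 22 settings. The serpin WSZ2a reversed to -0.01326 without Malacca in the mean. Deviations from group means correlated above 0.1 in 41 of 74 pairs of same-numbered arrays of an environment (median r 0.12) and in 37 of 148 differently numbered pairs (median -0.09). Same-numbered arrays were thus more alike. The main fit did not use the numbers to pair plots, and whether they mark shared field blocks was not tested. The number as a replicate block gave 17536 calls against the mean and 1377 under the stricter rule, and let 6-FEH (adjusted p = 0.0271) and rbcl (adjusted p = 0.0215) pass the test between environments. Over 7 settings, that test passed in 3 for each, with adjusted p between 0.0149 and 1 for 6-FEH and between 0.000877 and 1 for rbcl. Leaving out 1 replicate number of all groups gave 8985 to 13068 calls against the mean, 617 to 792 under the stricter rule, 7471 to 12970 against Cordiale, 8143 to 10977 against Hereward, 7567 to 11927 against Istabraq, 8370 to 8782 against Malacca, 5574 to 7294 against Marksman, 41 to 299 between environments, 3730 to 8507 at N100 and 4296 to 8217 at N350. Fewer arrays per group are part of that construction. A minimum of 1.5-fold left 1211 calls against the mean and 256 under the stricter rule. With probe sets of a mean of at least 6 only, fewer were tested, and 10325 were called against the mean (41.8% higher), 9523 against Cordiale, 9587 against Hereward, 9070 against Istabraq and 5540 at N100. With only the arrays compared, 855 were called between environments and 5660 at N350. Array weights gave 2030 under the stricter rule, and leaving out RAGT 2011 gave 805; the cause was not tested. The covariate for RNA integrity gave 16856 calls against the mean and 1224 under the stricter rule. Without the 3 arrays farthest from their groups, a setting added after seeing the data, the counts were 14784 and 1032. Signals near the low end of the scale limit what can be said of the size of the largest differences.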
